A study of Gossypium hirsutum with 6 samples.

Results

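Fasciclin-like arabinogalactan proteins (FLA proteins) are glycoproteins of the plasma membrane and the cell wall. They join fasciclin domains, which act in cell adhesion in animals, to stretches of hydroxyproline that carry arabinogalactan sugars, and many are held at the outer face of the membrane by a lipid (GPI) anchor. In Arabidopsis, FLA11 and FLA12 are known from the secondary walls of stems, where they bear on cellulose deposition and stem stiffness, and relatives of these proteins are abundant in elongating cotton fibres. The genes described here are the cotton genes whose best match in the deposited table is 1 of 10 Arabidopsis loci, namely FLA1 (AT5G55730), FLA2 (AT4G12730), FLA6 (AT2G20520), FLA7 (AT2G04780), FLA8 (AT2G45470), FLA9 (AT1G03870), FLA10 (AT3G60900), FLA11 (AT5G03170), FLA12 (AT5G60490) and FLA17 (AT5G06390). They number 39 among 70478 genes, and each cotton gene is called a copy of the locus it matches. FLA7 had 8 copies, FLA12 had 7, FLA17 had 6 and FLA2 had 5. FLA1 and FLA8 had 4 copies each, FLA9 and FLA11 had 2 each, FLA10 had 1, and no gene was matched to FLA6.

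RNA was taken from whole wild-type seedlings of Gossypium hirsutum strain CCRI24, a cotton with an A and a D subgenome, grown at 25 °C with 16 h light and 8 h dark. Seedlings of 4 d were moved for 24 h to medium with the solvent DMSO or with 5 μM AZD (AZD8055), an ATP-competitive inhibitor of the kinase TOR, and were 5 d old at harvest. Each treatment had 3 libraries, which the study calls biological repeats, and the question is whether FLA transcripts differed between the treatments. The signs in the study's own gene tables run opposite to those that the sample labels give. For some genes the study reports qRT-PCR results that matched the signs of its own tables. Which of both is right was not tested here, and the libraries are named by their labels. If the labels were exchanged, every fold change given here would take the other sign.

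The values are FPKM, fragment numbers scaled to transcript length and to the size of the library, so that levels can be set beside each other between genes. Where 3 values follow one another they are replicates 1, 2 and 3 of a group, and "with DMSO" and "with AZD" stand for libraries carrying that label. Fold changes are log2 differences of libraries labelled AZD against those labelled DMSO on log2(FPKM + 0.5), from limma over 43158 genes whose mean reached 0.5 FPKM, and a gene is called at an adjusted p under 0.05. The added 0.5 FPKM shrinks the fold changes of low genes. The step between low values gave how many fragments 1 FPKM of the same gene stood for, relative to DMSO replicate 1. This relative scale was 1, 1.154 and 1.464 in DMSO replicates 1, 2 and 3. In AZD replicates 1, 2 and 3 it was 1.011, 0.923 and 1.028. It should not be read as sequencing depth. Fragment numbers given below are the smallest whole numbers that fit a gene's values on this scale, and were not counted from reads. The read numbers that the study lists were lowest in its sample DMSO-2 and highest in AZD-3. The 3 most abundant genes took 56.0% to 73.9% of the summed FPKM of a library. DMSO replicate 3 was the highest of the 6 libraries in 17.6% of all tested genes. Green tissue markers differed between the groups, with a sum over 31 genes of the LHCB antenna proteins of 11281, 6694 and 6186 FPKM with DMSO and of 27074, 24137 and 25570 FPKM with AZD. Of these 31 genes 22 were tested, and 11 of them were higher with AZD and 0 were lower. Of all tested genes 1.89% were higher and 2.8% lower. Of the 13 LHCB loci 5 were at 0 or had no gene. In whole seedlings, fewer cells of a type and less RNA per cell cannot be told apart, and the part of tissue make-up in the FLA values was not tested.

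No FLA copy passed the test in either direction. Of the 39 copies, 29 reached a mean of 0.5 FPKM and were tested with limma. Of these, 0 were higher (1.89% of all tested genes were) and 0 were lower (2.8% of all tested genes were). At an unadjusted p under 0.05, 5 copies were higher, or 17.2% against a background of 11.4%, and 1 was lower, or 3.45% against 11.9%. The 3 libraries labelled AZD lay above the 3 labelled DMSO in 4 copies (13.8%, against 14.5% of all tested genes) and below them in 1 copy (3.45%, against 15.5%). That 1 copy, Gh_D11G3281 of FLA11, reached a mean of 0.5 FPKM only through its values with DMSO. The median fold change of the 29 copies was −0.03, beside −0.01 over all tested genes, with 13 copies above 0 and 16 below. The smallest adjusted p was 0.0917 (limma), for the FLA7 copy Gh_A07G0788. The counts of called copies were 0 in each of the 15 settings tried, which include leaving out each library in turn.

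The 95% intervals show the range of fold changes that these libraries leave plausible. They are not adjusted for the number of genes tested, so an interval can exclude 0 in a copy that was not called. For 14 of the 29 copies the interval of the fold change lay within −1 and 1, so that a 2-fold difference was outside it. For the others a 2-fold difference in at least 1 direction lay within it. The narrowest interval, 0.17 to 0.81, was that of the FLA7 copy Gh_A07G0788. The FLA2 copy Gh_A07G1742 had one of −0.36 to 0.31 around a fold change of −0.03, at 20.5, 18.4 and 22.1 FPKM with DMSO and 20.4, 22.0 and 17.6 FPKM with AZD. The widest was for the FLA12 copy Gh_D09G1018, with an interval of −3.32 to 1.82. These copies were picked for their intervals.

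**Figure D1:**
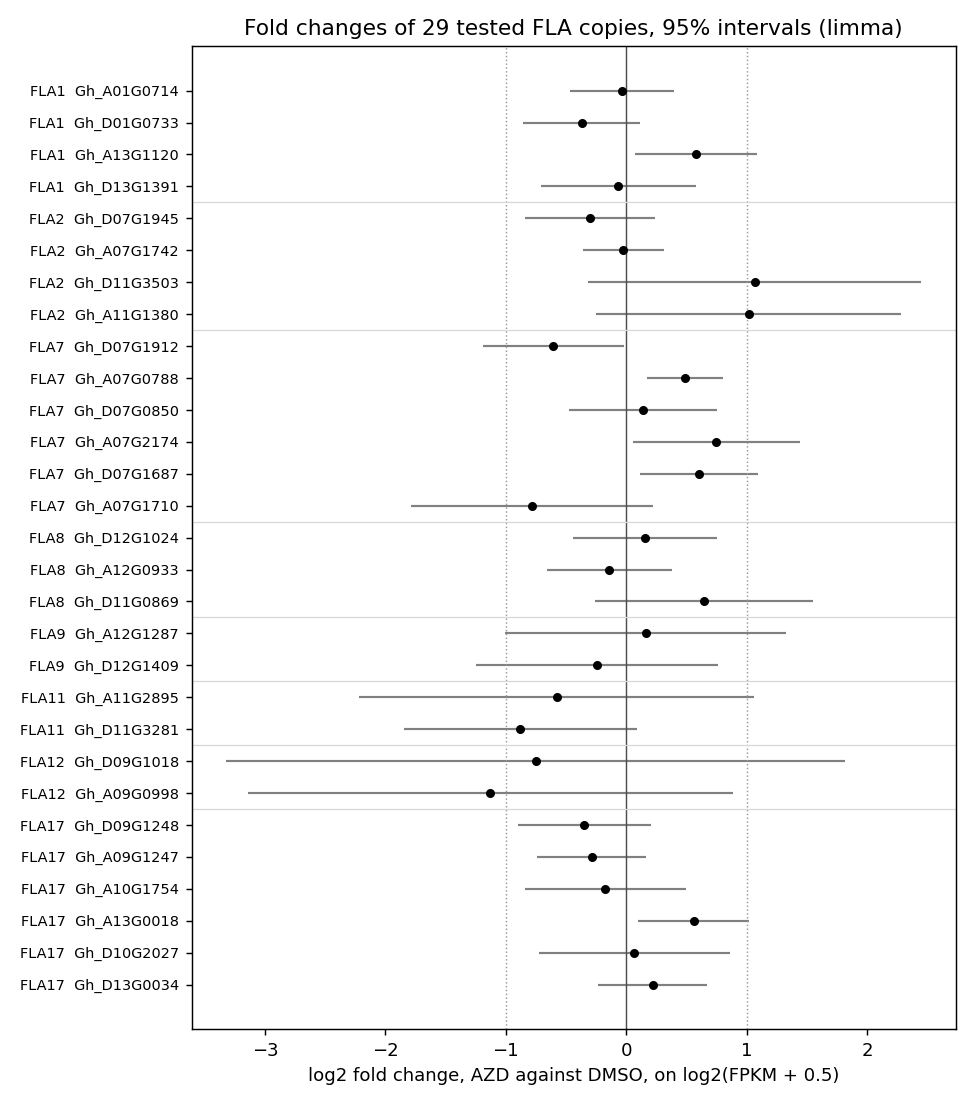
Each point is the limma fold change (x axis, log2 of AZD against DMSO on log2(FPKM + 0.5)) of 1 of the 29 tested copies, ordered by locus, with its 95% interval as a bar (3 libraries per group), and dotted lines mark −1 and 1. The intervals of 14 copies lie between the dotted lines, and those of the 2 FLA12 copies are the widest.

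Levels differed widely between the loci. Summed over copies and averaged over the 6 libraries, FLA1 stood at 95.8 FPKM, FLA2 at 58.7, FLA7 at 56.9 and FLA17 at 51.9 FPKM. FLA8 followed at 33.3 FPKM, FLA9 at 19.1, FLA12 at 8.88, FLA11 at 1.55 and FLA10 at 0.415 FPKM. FLA1 was above FLA2 in 6 of 6 libraries, FLA17 above FLA8 in 6, FLA8 above FLA9 in 6 and FLA12 above FLA11 in 6. FLA2 and FLA7 kept their order in only 3 libraries and FLA7 and FLA17 in 4, so that neither of these neighbouring pairs differed beyond its spread. FLA9 was above FLA12, and FLA11 above FLA10, in 5 of 6 libraries.

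The sum over all 39 copies was 306, 268 and 435 FPKM with DMSO and 314, 365 and 271 FPKM with AZD. The groups overlapped, with DMSO replicate 3 the highest library and DMSO replicate 2 the lowest. For none of the 9 loci did the summed FPKM of the 2 groups separate. The share of FLA1 overlapped between the groups as well, at 29.9% ± 6.06 of the family's FPKM with DMSO and 29.7% ± 2.77 with AZD (SD, n = 3).

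**Figure D2:**
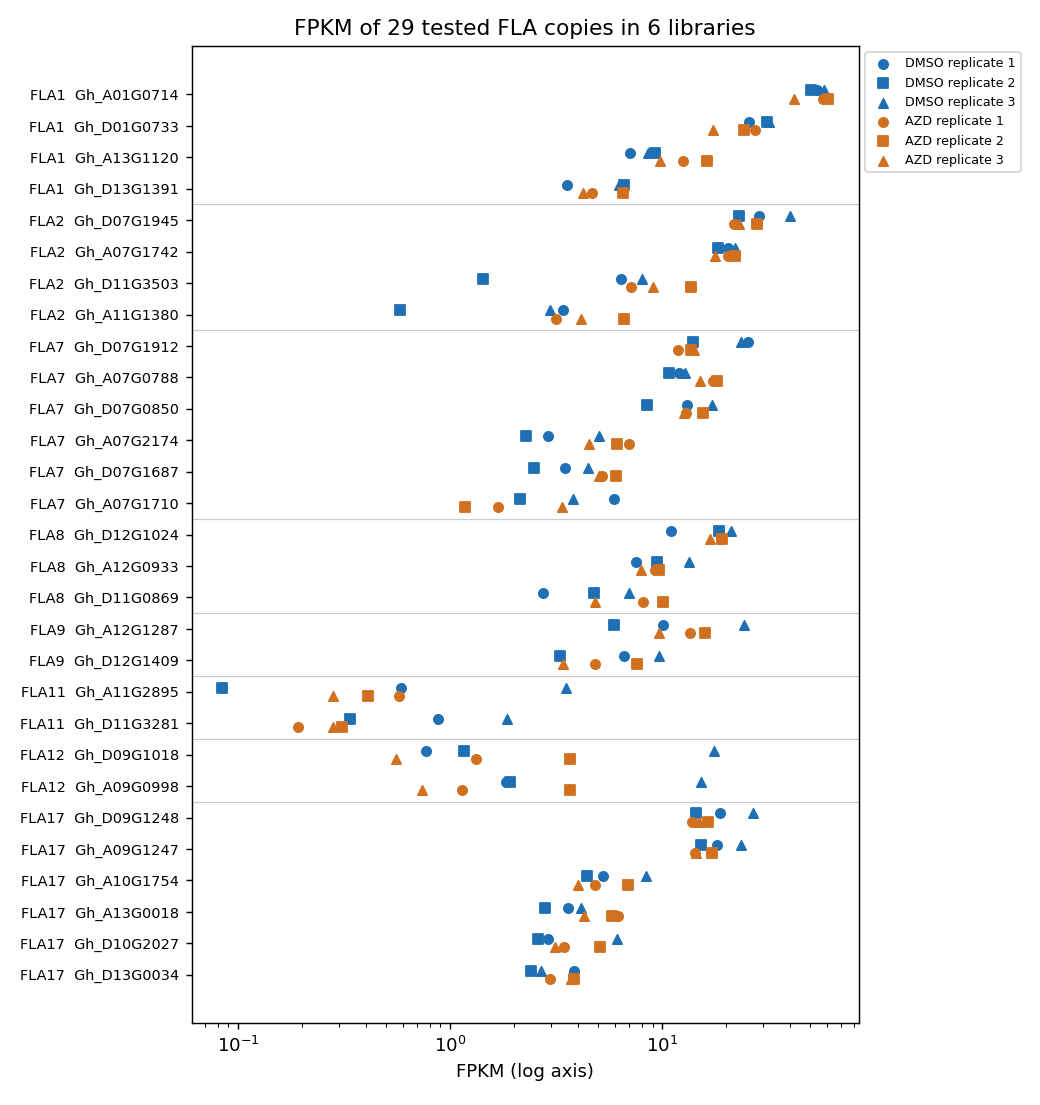
FPKM (x axis, log scale) of the 29 tested copies in each of the 6 libraries, with blue symbols for DMSO, orange for AZD and the symbol's shape for the replicate number. Orange lies wholly above blue in 4 copies and wholly below in 1, and the blue triangles of DMSO replicate 3 lie far to the right for both FLA12 copies.

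The median FLA copy varied more among replicates than the median gene did. The median SD of log2(FPKM + 0.5) over the tested copies was 0.46 among the libraries labelled DMSO and 0.29 among those labelled AZD, beside 0.25 and 0.19 over all tested genes. DMSO replicate 3 was the highest of the 3 DMSO libraries in 23 of the 29 copies (79.3%, against 30.4% of all tested genes) and the highest of all 6 libraries in 16 (55.2%, against 17.6%). DMSO replicate 2 was the lowest of the 3 in 21 copies (72.4%, against 31.9%). Relative to each copy's mean over the 6 libraries, the median copy stood at −0.04, −0.30 and 0.38 on the log2 scale in DMSO replicates 1, 2 and 3 and at −0.02, 0.31 and −0.22 in AZD replicates 1, 2 and 3. These counts were made after the values had been seen and were given no test.

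FLA11 and FLA12 are the loci that in Arabidopsis belong to secondary walls, and the tested FLA12 copies had the widest intervals of the family. The protein of each has a single fasciclin domain and a GPI anchor. FLA12 in its copy Gh_A09G0998 stood at 1.83, 1.91 and 15.3 FPKM with DMSO and at 1.14, 3.66 and 0.739 FPKM with AZD. Its companion Gh_D09G1018 stood at 0.769, 1.16 and 17.6 FPKM with DMSO and at 1.32, 3.66 and 0.554 FPKM with AZD. In both copies DMSO replicate 3 was far above the other 5 libraries, whose groups overlapped. The fold changes were −1.13 (standard error 0.84, adjusted p = 0.475, limma) and −0.75 (standard error 1.07, adjusted p = 0.723, limma). Without DMSO replicate 3 they were −0.22 (adjusted p = 0.857, limma) and 0.46 (adjusted p = 0.710, limma).

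The other 5 FLA12 copies were not tested. Gh_D13G2307, named after its values were seen, stood at 0.170, 0.147 and 1.68 FPKM with DMSO and was listed at 0 in all libraries labelled AZD. The steps of its values correspond to 2, 2 and 29 fragments, within 0.15 of a fragment. On this smallest fit the 2 lower libraries rest on very few. Gh_A13G1919, Gh_A07G1070 and Gh_D07G1165 were above 0 only in DMSO replicate 3, at 1.05, 0.403 and 0.202 FPKM, and the scaffold gene Gh_Sca093234G01 was listed at 0 throughout. All 6 FLA12 copies with any signal thus had their highest value in DMSO replicate 3.

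FLA11 in Gh_A11G2895 stood at 0.584, 0.0839 and 3.52 FPKM with DMSO and at 0.575, 0.411 and 0.281 FPKM with AZD (fold change −0.58, adjusted p = 0.662, limma). Gh_D11G3281 stood at 0.876, 0.336 and 1.86 FPKM with DMSO and at 0.192, 0.308 and 0.281 FPKM with AZD. In Gh_D11G3281 the libraries labelled AZD all lay below those labelled DMSO, with a fold change of −0.88 and an interval of −1.85 to 0.09 (adjusted p = 0.252, limma). The steps of this copy correspond to 9, 4 and 28 fragments in the libraries labelled DMSO and to 2, 3 and 3 in those labelled AZD. Mean values with AZD were 0.42 FPKM for Gh_A11G2895 and 0.26 FPKM for Gh_D11G3281. Both copies thus reached the limit of 0.5 FPKM only through the libraries labelled DMSO. Without DMSO replicate 3 both copies were under the limit of 0.5 FPKM and were not tested. The summed FPKM of FLA11 gave a log2 ratio of group means of −1.83, or −0.46 without DMSO replicate 3, and that of FLA12 gave −1.93, or 0.30 without it.

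Many wall genes, of primary as well as secondary walls, were also highest in DMSO replicate 3. Of 25 secondary wall loci with any signal, 17 had their highest sum there. So had 8 of 10 loci of primary wall cellulose and 1 of 2 xylem loci. These sums include copies too low to be tested. No such count was made over all loci, and of all tested genes 17.6% were highest in that library. The cellulose synthase CESA4, which acts in secondary walls, stood at a summed 2.60, 2.94 and 7.02 FPKM with DMSO and at 1.77, 2.19 and 1.58 FPKM with AZD. Its partner CESA8 stood at 1.63, 1.78 and 4.49 FPKM with DMSO and at 1.03, 1.36 and 0.669 FPKM with AZD. The chitinase-like CTL2, another gene of secondary wall cellulose, stood at 6.28, 7.31 and 18.7 FPKM with DMSO and at 4.30, 5.36 and 4.22 FPKM with AZD. These loci were picked after their values were seen. Others went otherwise, and PARVUS, an enzyme of xylan synthesis, stood at 30.4, 20.9 and 35.9 FPKM with DMSO and at 40.3, 37.9 and 32.7 FPKM with AZD. XCP1, a protease of xylem vessels, stood at 11.7, 17.9 and 26.8 FPKM with DMSO and at 10.3, 12.2 and 6.81 FPKM with AZD, while VND7 was near 0 and XCP2 and VND6 had no matched gene. The part of these tissues in the FLA11 and FLA12 values was not tested.

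**Figure D3:**
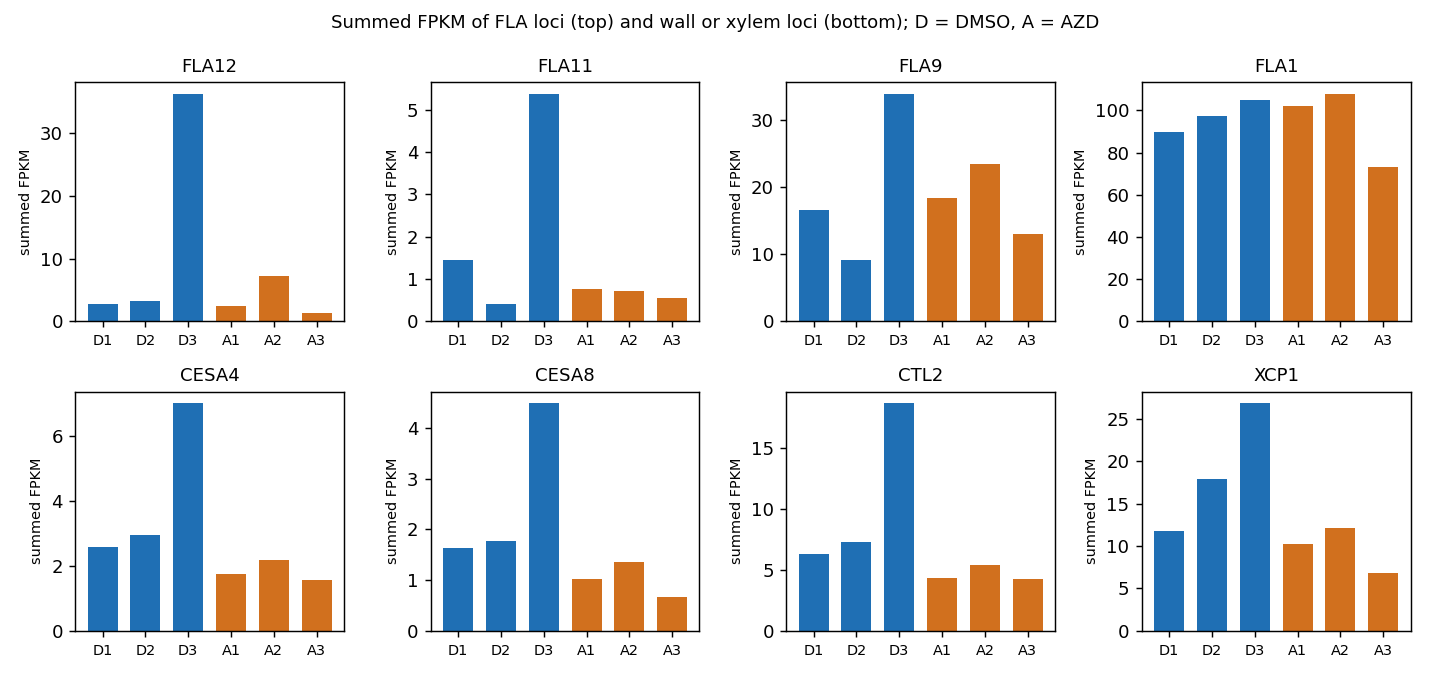
Each bar is the FPKM of 1 locus summed over its copies (y axis, from 0) in 1 library, with D1 to D3 for DMSO replicates 1 to 3 and A1 to A3 for AZD replicates 1 to 3. The top row shows FLA12, FLA11, FLA9 and FLA1 and the bottom row CESA4, CESA8, CTL2 and XCP1, picked after their values were seen. DMSO replicate 3 is highest in all panels except FLA1, where the bars lie between 73.0 and 108 FPKM.

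FLA9, which also has a single fasciclin domain, had 1 copy on each subgenome. Gh_A12G1287 stood at 10.03, 5.93 and 24.2 FPKM with DMSO and at 13.5, 16.0 and 9.65 FPKM with AZD. Gh_D12G1409 stood at 6.59, 3.30 and 9.71 FPKM with DMSO and at 4.80, 7.57 and 3.40 FPKM with AZD. In both copies the lowest and the highest of the 6 values were DMSO libraries, so that the group labelled AZD lay inside the range of the other. The fold changes were 0.16 (adjusted p = 0.881, limma) and −0.24 (adjusted p = 0.778, limma).

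FLA7 showed the most uneven picture among its copies, although its sum hardly differed, at 56.6 ± 14.5 FPKM (SD, n = 3) with DMSO and 57.2 ± 3.11 FPKM with AZD. The 6 tested copies all lie on chromosomes A07 and D07 by their IDs. Gh_D07G1912, the most abundant, stood at 25.4, 13.9 and 23.5 FPKM with DMSO and at 11.8, 13.6 and 14.2 FPKM with AZD. DMSO replicate 2 lay within the AZD values, and the fold change was −0.60 (standard error 0.24, adjusted p = 0.201, limma), or −0.87 without DMSO replicate 2 (adjusted p = 0.0512, limma). Gh_A07G1710 stood at 5.91, 2.14 and 3.80 FPKM with DMSO and at 1.69, 1.18 and 3.38 FPKM with AZD (fold change −0.78, adjusted p = 0.319, limma).

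Other FLA7 copies had positive fold changes. Gh_A07G0788, named here for its smallest adjusted p, stood at 12.03, 10.7 and 12.8 FPKM with DMSO and at 17.3, 18.2 and 15.1 FPKM with AZD. The groups did not overlap, and the fold change was 0.49 (interval 0.17 to 0.81, adjusted p = 0.0917, limma). Gh_A07G2174 stood at 2.90, 2.28 and 5.05 FPKM with DMSO and at 6.96, 6.14 and 4.51 FPKM with AZD, with DMSO replicate 3 above AZD replicate 3 (fold change 0.75, adjusted p = 0.187, limma). Gh_D07G1687 had a fold change of 0.60 with groups that did not overlap (adjusted p = 0.145, limma), and Gh_D07G0850 one of 0.14. The remaining 2 copies, on chromosomes A08 and D08, were at or near 0.

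As a share of the 6 copies, which does not depend on how a library is scaled, Gh_D07G1912 took 40.5%, 34.7% and 35.2% in DMSO replicates 1, 2 and 3 and 21.1%, 22.4% and 25.8% in AZD replicates 1, 2 and 3. Together with Gh_A07G1710 it took 49.9%, 40.1% and 40.9% and then 24.1%, 24.4% and 32.0%. Gh_A07G0788 took 19.2%, 26.8% and 19.2% and then 30.9%, 29.9% and 27.5%. In these shares the groups did not overlap. The share of Gh_A07G1710 alone did overlap, at 9.41%, 5.35% and 5.68% with DMSO and 3.02%, 1.94% and 6.15% with AZD. That of Gh_D07G0850 overlapped as well, while those of Gh_A07G2174 and Gh_D07G1687 lay above with AZD. For other loci, shares were computed only within pairs of copies on A and D chromosomes. The groups were apart in 3 of the 10 pairs with both copies tested. No such shares were computed over all genes. The copies were set beside each other because of their fold changes, so the shares are a description, and an exact permutation test of 3 libraries against 3 could not give a p under 0.1.

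**Figure D4:**
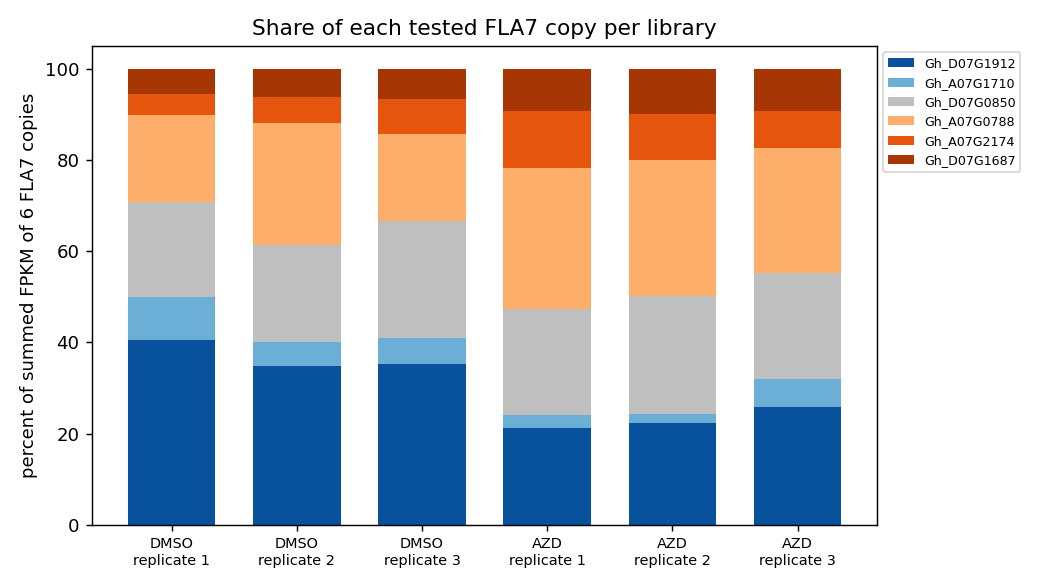
Stacked bars show each tested FLA7 copy as a percent of the summed FPKM of the 6 copies (y axis, from 0 to 100) in each library. The blue copies, Gh_D07G1912 and Gh_A07G1710, take 40.1% to 49.9% in the 3 DMSO libraries and 24.1% to 32.0% in the 3 AZD libraries.

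FLA1, FLA2, FLA8 and FLA10 encode proteins with a pair of fasciclin domains and a GPI anchor in Arabidopsis. FLA1, which acts in lateral root formation and shoot regeneration there, held the most abundant copy of the family. Gh_A01G0714 stood at 53.6, 50.2 and 57.9 FPKM with DMSO and at 57.4, 60.8 and 41.7 FPKM with AZD (fold change −0.03, interval −0.47 to 0.40). Gh_D01G0733 stood at 25.7, 31.1 and 32.0 FPKM with DMSO and at 27.5, 24.3 and 17.4 FPKM with AZD (fold change −0.37, adjusted p = 0.326, limma). Gh_A13G1120 stood at 7.06, 9.25 and 8.55 FPKM with DMSO and at 12.5, 16.3 and 9.73 FPKM with AZD. All its AZD values lay above its DMSO values, at a fold change of 0.58 (standard error 0.21, adjusted p = 0.167, limma).

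FLA2 held pairs of copies of different behaviour. Gh_D07G1945 stood at 28.7, 23.1 and 39.9 FPKM with DMSO and at 21.8, 27.9 and 23.0 FPKM with AZD (fold change −0.30, adjusted p = 0.476, limma). Gh_D11G3503 stood at 6.37, 1.42 and 8.00 FPKM with DMSO and at 7.16, 13.7 and 9.02 FPKM with AZD. Here DMSO replicate 2 was the low library and AZD replicate 2 the high one, and Gh_A11G1380 on chromosome A11 had the same low and high libraries, at 0.578 and 6.58 FPKM. The fold changes of 1.07 (adjusted p = 0.323, limma) and 1.02 (adjusted p = 0.304, limma) were both uncalled, and that of Gh_D11G3503 was 0.40 without DMSO replicate 2. Gh_A07G1741, whose number is next to that of the abundant Gh_A07G1742, was listed at 0 in every library.

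FLA8 in its copy Gh_D12G1024 stood at 10.9, 18.5 and 21.1 FPKM with DMSO and at 18.9, 19.1 and 16.8 FPKM with AZD (fold change 0.16). Gh_A12G0933 stood at 7.53, 9.44 and 13.4 FPKM with DMSO and at 9.21, 9.63 and 7.95 FPKM with AZD (fold change −0.14). Gh_D11G0869 stood at 2.73, 4.76 and 6.98 FPKM with DMSO and at 8.13, 10.1 and 4.81 FPKM with AZD (fold change 0.65, adjusted p = 0.360, limma). In contrast to most of the family, the lowest DMSO library of all 3 copies was replicate 1. FLA10 in its only copy, Gh_A11G0748, stood at 0.118, 0.102 and 1.17 FPKM with DMSO and at 0.233, 0.758 and 0.114 FPKM with AZD, which correspond to 2, 2, 29, 4, 12 and 2 fragments, and it was not tested.

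FLA17 is in Arabidopsis a protein with a pair of fasciclin domains and no GPI anchor. Its copies fell into 3 pairs of chromosomes. Gh_D09G1248 stood at 18.6, 14.5 and 26.8 FPKM with DMSO and at 13.9, 16.5 and 15.0 FPKM with AZD (fold change −0.35, adjusted p = 0.419, limma). Gh_A13G0018 stood at 3.58, 2.81 and 4.15 FPKM with DMSO and at 6.17, 5.79 and 4.28 FPKM with AZD. All its AZD values were above its DMSO values, with a fold change of 0.56 (standard error 0.19, adjusted p = 0.149, limma). The other 4 copies had fold changes of −0.29 to 0.22.

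The A and D chromosomes of one number are counterparts in this cotton, and in 13 cases a locus had exactly 1 copy on each. Both copies were tested in 10 of these pairs, and their fold changes had the same sign in 6. The A copy was the higher in all 6 libraries in 4 pairs and the D copy in 2. The pair of FLA17 on chromosome 9 was the most even, with the A copy at 46.9% to 51.4% of the pair's FPKM. In FLA1, Gh_A01G0714 took 67.6%, 61.8% and 64.4% of its pair in DMSO replicates 1, 2 and 3 and 67.6%, 71.4% and 70.6% in AZD replicates 1, 2 and 3. On chromosome 13, Gh_A13G1120 took 66.6%, 58.3% and 57.6% and then 72.8%, 71.5% and 69.8%. In these 2 pairs the A share of every AZD library lay above that of every DMSO library, with a near tie at 67.6% in the first. In the FLA8 pair on chromosome 12 it lay below, at 32.2% to 33.6% against 33.8% to 40.8%. The groups were thus apart in 3 of the 10 pairs. Among all tested genes, the FPKM of the groups did not overlap in 14.5% (AZD above) and 15.5% (AZD below). No such share was computed over all A and D pairs. The pairs rest on chromosome number and Arabidopsis locus. How alike their sequences are was not tested, and where copies are alike, reads can be assigned to the wrong one.

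**Figure D5:**
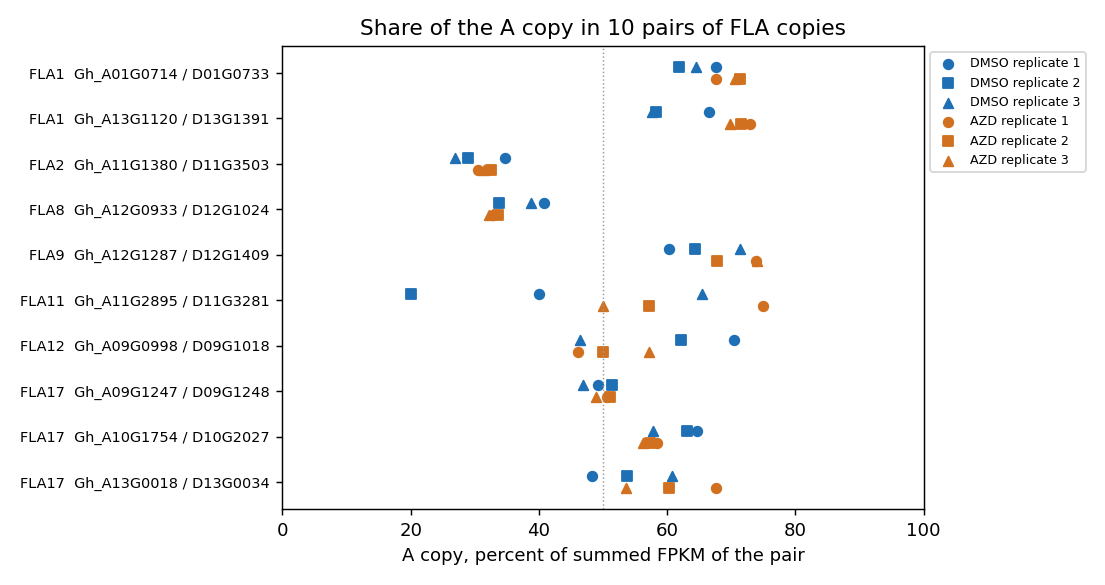
The A copy's percent of the summed FPKM of its pair (x axis, 0 to 100) for 10 pairs of copies on A and D chromosomes of the same number, in the 6 libraries, with blue for DMSO, orange for AZD and the symbol's shape for the replicate number. The FLA1 pairs lie at 57.6% to 72.8%, and the FLA17 pair on chromosome 9 lies near 50%.

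Few genes of other arabinogalactan proteins (AGP) could be tested, and 0 were called, beside 1.89% called higher and 2.8% lower over all tested genes, which in lists of this size leaves room for few calls. Of 11 other FLA loci, 5 had a cotton gene and 4 genes were tested, with limma calling 0 higher and 0 lower (1 at an unadjusted p under 0.05) and a median fold change of 0.43. FLA4, which in Arabidopsis is needed for normal root cell expansion under salt, summed to 7.45, 7.81 and 8.67 FPKM with DMSO and to 10.5, 17.7 and 5.72 FPKM with AZD. Among 23 tested genes of other arabinogalactan proteins (AGP16, AGP20, AGP31, XYP1 and XYP2, with the other 27 of 32 loci at 0 or without a gene) limma also called 0 in either direction (2 at an unadjusted p under 0.05), with a median of −0.13. Among 32 tested genes of enzymes that put sugars on AGP, limma called 0 as well (2 at an unadjusted p under 0.05). Their median was 0.07. Over all tested genes 11.4% were higher and 11.9% lower at an unadjusted p under 0.05 (limma).

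Of 44 tested secondary wall genes 2 were higher and 1 was lower, beside the same shares of 1.89% and 2.8% over all tested genes, with a median fold change of −0.47. At an unadjusted p under 0.05 (limma) 4 were higher and 8 lower, beside 11.4% and 11.9% of all tested genes. The higher genes are 2 of 5 tested copies of TBL29, which acetylates xylan. Its other tested copies had fold changes of −0.47 to 0.56 and were not called. Gh_A05G2883 stood at 1.34 ± 0.137 FPKM (SD, n = 3) with DMSO and 3.56 ± 0.422 FPKM with AZD (fold change 1.14, adjusted p = 0.0151, limma), and Gh_D04G0662 at 3.79 ± 0.895 and 7.80 ± 1.04 FPKM (fold change 0.96, adjusted p = 0.0430, limma). The lower gene, Gh_D08G1910, is a copy of KNAT7, a homeodomain regulator of the secondary wall, at 4.23 ± 0.801 and 2.04 ± 0.376 FPKM (fold change −0.89, adjusted p = 0.0459, limma). Other tested KNAT7 copies, at fold changes of −0.46 to −0.20, were not called. Among 34 tested genes of primary wall cellulose synthesis, Gh_D06G1219, a copy of CESA6, was lower, at 17.5 ± 6.45 FPKM and 5.61 ± 1.101 FPKM (fold change −1.52, adjusted p = 0.0360, limma), and 0 were higher. At an unadjusted p under 0.05 (limma) 1 of the 34 was higher and 7 were lower. DMSO replicate 3 was the highest of all 6 libraries in 25 of these 34 genes and in 21 of the 44 secondary wall genes. Root markers summed to 10.04, 3.59 and 6.94 FPKM with DMSO and to 2.90 to 3.97 FPKM with AZD, with 3 of 10 loci at 0 or without a gene. Most of this sum is MYB36, the only root locus with tested genes, at 6.68, 3.03 and 6.01 FPKM with DMSO and at 2.47, 1.94 and 2.42 FPKM with AZD. EXPA7, an expansin of root hairs, ran the other way, at 0, 0.146 and 0.173 FPKM with DMSO and at 0.584, 0.449 and 1.06 FPKM with AZD. Oleosins of seed oil bodies summed to 0.891 to 4.16 FPKM over the 6 libraries.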

How the data were processed

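RNA of whole seedlings was sequenced as paired-end reads on an Illumina HiSeq instrument. The authors aligned reads with TopHat2 and used Cufflinks and Cuffdiff to obtain the deposited FPKM, a linear value per gene and library. The sources used here give no versions, genome build or rescaling between libraries, and the labels and the methods name different RNA extraction reagents and library kits. All 6 value columns were used. FPKM are not counts, so no count model was run. What separates the repeats is not stated, so p-values measure only the spread between these libraries.

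Genes were chosen by the Arabidopsis locus in the table. Of its gene IDs, 0 occur in the RefSeq gene list, and no sequence is printed. limma 3.58.1 in R 4.3.3 fitted log2(FPKM + 0.5) with a trend, for genes averaging 0.5 FPKM or more, two-sided, adjusted by Benjamini-Hochberg over all 43158 genes, threshold 0.05. The test was checked on simulated data. Tables were made with Python 3.11.15 and pandas 2.3.3.

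The members and lists were chosen with earlier results of these data known. Named were, per locus, the most abundant copy and the copies with the highest and the lowest fold change, and other copies were named after their values were seen. Alternatives were other pseudocounts (0.1, 1), no filter or a mean of 1 FPKM, median-of-ratios rescaling, quantile normalization, no trend, a replicate block and leaving out each library.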

Additional observations from a re-analysis of the deposited data

How the results depend on the processing

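No FLA copy was called in any of 15 settings (limma, with 1 to 7 copies at an unadjusted p under 0.05), and the smallest adjusted p of a copy ranged from 0.0512 to 0.272. Over all genes, leaving out 1 library in turn gave 44 to 1913 higher and 155 to 1677 lower genes, beside 817 and 1208 over all 6 libraries. With the replicate block 14 were higher and 58 lower. The main test used no pairs, since the study's methods name none. Same-numbered libraries correlated at 0.02, −0.04 and −0.09 in their deviations from the group means. Libraries of unlike number correlated at −0.12 to 0.18.

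Of 19 named copies with a fold change, 6 changed sign in 9 of 281 values, and none of the 6 was called. Leaving out libraries, Gh_A01G0714 ranged from −0.14 to 0.13, Gh_D12G1024 from −0.12 to 0.34, Gh_A12G0933 from −0.32 to 0.073, Gh_A12G1287 from −0.28 to 0.69, Gh_D12G1409 from −0.63 to 0.085 and Gh_D09G1018 from −1.46 to 0.46. As the log2 ratio of group means Gh_A12G1287 was at −0.039. The log2 ratio of summed FPKM moved by more than the replicate SD at 3 loci, each without DMSO replicate 3, to 1.74 for FLA10, −0.46 for FLA11 and 0.30 for FLA12. By the fitted fragment numbers, FLA10 and the FLA11 copy Gh_D11G3281 rest on few fragments, which limits their precision. For the FLA11 copy Gh_A11G2895 no such fit was found.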
